A study of Caenorhabditis elegans with 12 samples.

Results

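Homologous recombination mends a broken chromosome by copying an intact partner, and in a worm it is known above all from the germline, where meiotic cells break their own DNA on purpose and repair it to form crossovers. SPO-11 makes the break, the MRE-11 and RAD-50 complex trims its ends with the help of COM-1, and RAD-51 coats the exposed strand and searches for the partner after BRC-2 has loaded it and RFS-1 has shaped the filament. The BRC-1 and BRD-1 ubiquitin ligase, the worm form of BRCA1 and BARD1, promotes repair from the sister chromatid, and MSH-5 stabilises the joined molecules that become crossovers. The transcripts of these 10 genes (rad-51, brc-1, brd-1, brc-2, mre-11, rad-50, com-1, spo-11, msh-5 and rfs-1) were followed here. They were chosen by name, for break formation, end resection and strand exchange, out of 46726 annotated genes, and all 10 were among the 14248 genes with enough reads to be tested.

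The samples were whole Caenorhabditis elegans adults at day 7, raised on OP50 bacteria, with at least 500 animals to a culture. The mutant was strain TG1660 with the xpf-1(tm2842) allele of the gene for the XPF-1 nuclease of nucleotide excision repair and crosslink repair, and the reference strain was N2, the laboratory wild type. There were 6 libraries of xpf-1 and 6 of N2, all of the same age and food, and each group was a single strain, so other genetic differences between the strains cannot be told apart from the allele. The labels speak of 3 biological replicates per condition while 6 libraries were analysed, so the spread between libraries may be partly technical. The p-values, SE and intervals computed here take the 6 libraries of a group as independent. They are too small or too narrow if some libraries are technical repeats. DNA damage itself was not measured in these files.

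Total counts per library ran from 18407182 to 22817135 in xpf-1 and from 18667885 to 22370786 in N2. The xpf-1 transcript stood at 11.7 ± 1.57 CPM (library-scaled counts) in xpf-1 libraries and 73.0 ± 7.19 CPM in N2 libraries (SD, n = 6 each). N2 replicate 6 carries the wild-type strain label but a mutant genotype label, and its xpf-1 level of 68.8 CPM lay inside the N2 range of 63.9 to 81.1 CPM. Markers of germline, intestine, muscle, neurons and hypodermis all had reads, as whole animals should give, although 5 of 12 hypodermis markers, among them the collagen genes bli-1 and dpy-13, had too few reads to be tested.

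The recombination genes did not move as a block. By edgeR's quasi-likelihood test, with Benjamini-Hochberg adjustment across the 14248 genes and a threshold of 0.05, brd-1, rad-50 and com-1 rose in xpf-1, spo-11, brc-2 and mre-11 fell, and rad-51, brc-1, msh-5 and rfs-1 did not pass. That is 6 of 10 called, where 59.7% of all tested genes were called, with 3 of 10 higher against 30.1% of all genes and 3 of 10 lower against 29.6%. The share called was therefore near the background in both directions. Fold changes of the 10 spanned -0.64 to 0.49 on the log2 scale, their median was -0.09 and the median of all tested genes was 0.03. Together the 10 genes took 0.0625% of all counts in xpf-1 and 0.0604% in N2, and their summed level was 558 to 647 CPM in xpf-1 and 581 to 632 CPM in N2.

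**Figure D1:**
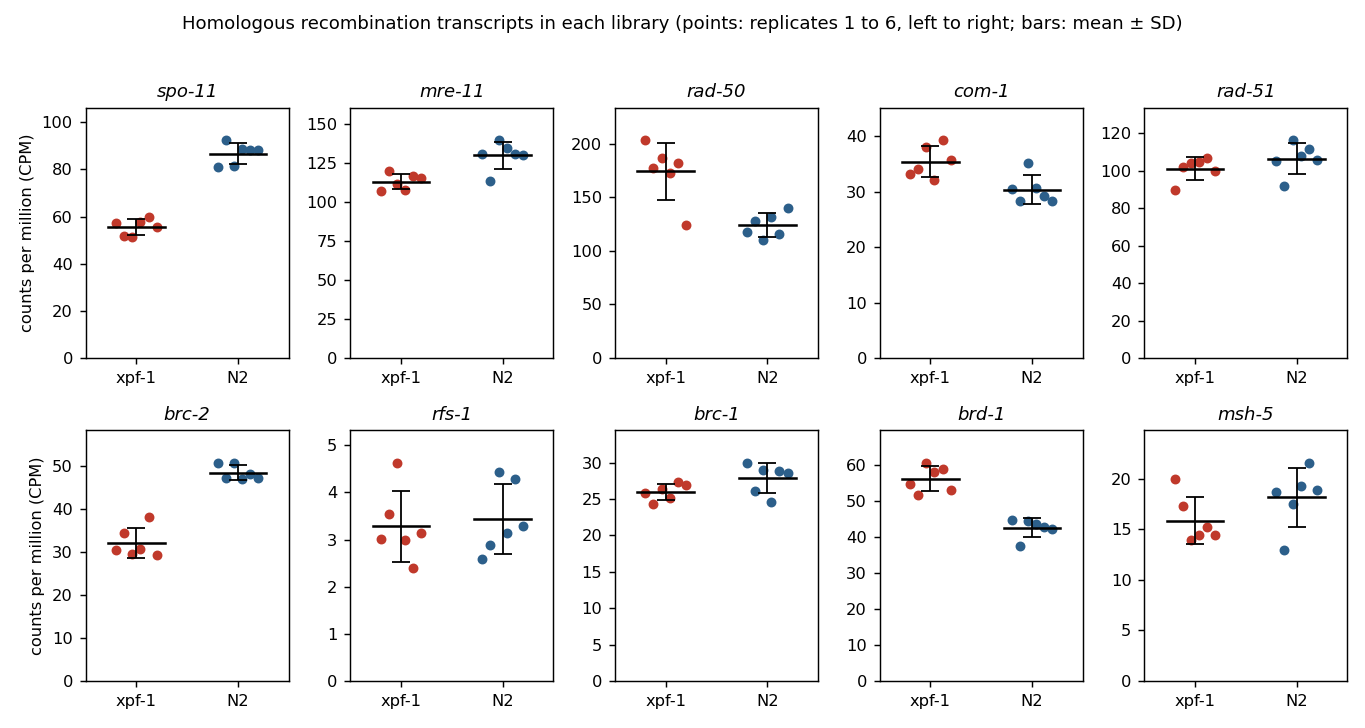
CPM (vertical axis, linear, starting at 0) of the 10 recombination genes in the 6 xpf-1 libraries (left in each panel) and the 6 N2 libraries (right), with the mean and SD as bars. The groups separate fully for spo-11, brc-2 and brd-1, and xpf-1 replicate 6 is the low point of rad-50 at 124.5 CPM.

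The germline frames every value that follows. Of 46 germline and oocyte markers, 43 fell in xpf-1 and 0 rose. Their median log2 fold was -0.77, and their summed level was 6620 to 7170 CPM in xpf-1 and 11100 to 12700 CPM in N2. None of the 46 was at 0 in all libraries. The eggshell gene cpg-2 averaged 458 ± 40.7 CPM in xpf-1 and 1150 ± 55.5 CPM in N2, and the oocyte maturation gene oma-2 168 ± 14.9 CPM in xpf-1 and 406 ± 27.3 CPM in N2 (SD, n = 6 each). The 5 genes of the mitotic zone of the germline, which are also counted among the 46, all fell. The stem cell regulator lst-1 was at 67.9 ± 3.38 CPM in xpf-1 and 99.5 ± 5.27 CPM in N2. In whole animals, fewer germ cells and less RNA per germ cell cannot be told apart, and the part of the germline in each result was not tested.

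Break-formation genes were lower in the mutant. The topoisomerase-like spo-11 (WBGene00004985, chromosome IV, 11123132 to 11124847, minus strand, WBcel235) had 51.4, 56.3 and 59.98 CPM as lowest, median and highest value in xpf-1 and 81.02, 88.2 and 92.4 CPM in N2. All 6 xpf-1 libraries lay below all 6 N2 libraries, which was so for 20.3% of all tested genes. Its log2 fold was -0.64 ± 0.05 (SE, 95% interval -0.75 to -0.53, edgeR adjusted p 7.21e-12), so that xpf-1 kept 64.2% of the N2 mean. Its annotated span overlaps by 23 bases enpl-1 on the other strand, an abundant chaperone gene that rose to 371 ± 22.6 CPM in xpf-1, against 314 ± 23.6 CPM in N2. Reads of the shared bases cannot be assigned with certainty because the strand setting of the counting is not given.

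The other break-formation genes went the same way as spo-11. Of 7 listed, 6 were in the table and all 6 fell, with a median log2 fold of -0.52, beside the fall of 43 of 46 germline markers. The share of all tested genes that fell was 29.6%. The number fallen was 5 under scaling by library totals or upper quartiles, in replicates 1 to 3 alone and with N2 replicate 6 counted as a mutant. The largest was xnd-1, a chromatin factor that shapes where breaks form, at 23.3 ± 1.73 CPM in xpf-1 and 47.6 ± 5.14 CPM in N2 (log2 fold -1.03 ± 0.07 SE, edgeR adjusted p 6.64e-14). Of the SPO-11 accessory genes, dsb-1 averaged 45.4 ± 4.71 CPM in xpf-1 and 63.4 ± 2.08 CPM in N2, and dsb-3 15.5 ± 3.10 CPM in xpf-1 and 26.7 ± 1.95 CPM in N2.

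The trimming step split between its subunits. The nuclease gene mre-11 (WBGene00003405, chromosome V, 10733929 to 10736844, minus strand) had 106.9, 113.6 and 119.8 CPM as lowest, median and highest value in xpf-1 and 113.4, 130.8 and 139.5 CPM in N2. The groups overlapped only through N2 replicate 2, the lowest N2 library. The log2 fold was -0.20 ± 0.05 (SE, 95% interval -0.30 to -0.10, edgeR adjusted p 0.00104), a mean of 87.1% of N2. In the subset of replicates 1 to 3 the value was -0.18 and did not pass (edgeR adjusted p 0.109).

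Its partner rad-50 (WBGene00004296, chromosome V, 12245594 to 12251246, plus strand), which encodes the long coiled-coil ATPase that tethers broken ends, went the other way. It had 124.5, 179.8 and 203.1 CPM as lowest, median and highest value in xpf-1 and 110.0, 123.0 and 139.6 CPM in N2. In xpf-1, 5 of 6 libraries lay above every N2 library and replicate 6 lay within the N2 range. The log2 fold was 0.49 ± 0.10 (SE, 95% interval 0.27 to 0.72, edgeR adjusted p 0.00114). Without xpf-1 replicate 6 it was 0.57 with an edgeR adjusted p of 4.02e-10, and in replicates 4 to 6 alone 0.31, which did not pass (0.237). At 4178 bases rad-50 is the second longest of the 10, and after removal of the trend of counts with gene length its log2 fold was 0.28 (edgeR adjusted p 0.0416).

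The resection cofactor com-1 (WBGene00008082, chromosome III, 10896388 to 10901838, plus strand), the worm CtIP, was modestly higher. It had 32.2, 34.97 and 39.3 CPM as lowest, median and highest value in xpf-1 and 28.3, 29.9 and 35.3 CPM in N2. All 6 xpf-1 libraries exceeded the N2 mean and 3 of 6 exceeded the highest N2 library, replicate 3. The log2 fold was 0.22 ± 0.07 (SE, 95% interval 0.08 to 0.36, edgeR adjusted p 0.00606), and it did not pass with replicates 1 to 3 alone (0.16, adjusted p 0.22) or with N2 replicate 6 counted as a mutant (0.16, adjusted p 0.15).

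Of the other 7 resection and single-strand binding genes, 4 fell, 0 rose and 3 did not pass, and the median log2 fold was -0.20. Among all tested genes 29.6% fell and 30.1% rose. The number fallen was 2 without N2 replicate 3, under scaling by library totals or upper quartiles, at an adjusted p of 0.01 and with a filter of 5 CPM, and 1 in replicates 1 to 3 alone and with N2 replicate 6 counted as a mutant. The third subunit of the trimming complex, nbs-1, had 8.70 ± 1.71 CPM in xpf-1 and 13.6 ± 1.97 CPM in N2 (log2 fold -0.65 ± 0.11 SE, edgeR adjusted p 1.53e-05). The long-range nuclease genes exo-1 and dna-2 fell by 0.27 and by 0.20 on the log2 scale. The genes of the single-strand binding protein, rpa-1 and rpa-2, were the most abundant of the recombination lists. The level of rpa-1 was 632 ± 17.7 CPM in xpf-1 and 632 ± 28.4 CPM in N2, and that of rpa-2 452 ± 16.1 CPM in xpf-1 and 453 ± 34.1 CPM in N2.

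**Figure D2:**
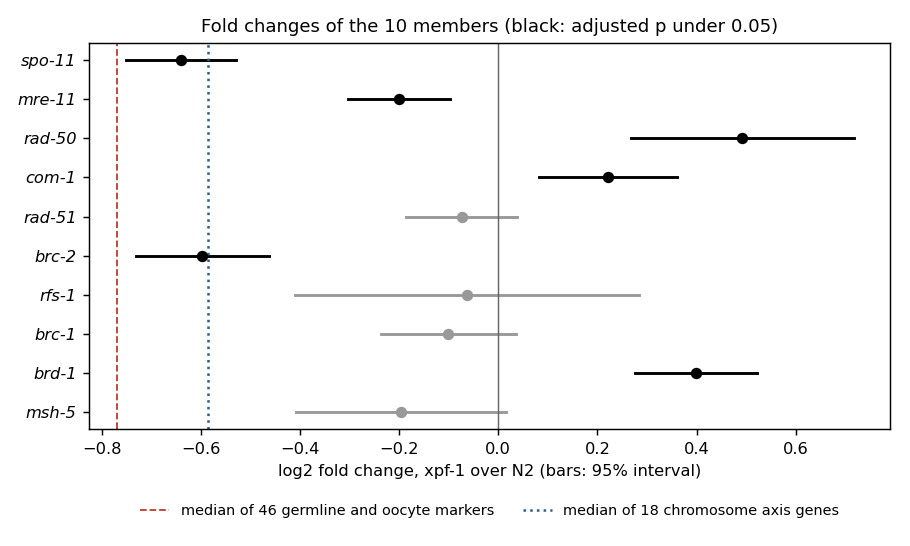
Log2 fold change of each recombination gene, xpf-1 over N2 (horizontal axis), with its 95% interval. Black marks genes that passed the test and grey those that did not. The dashed and dotted lines mark the median log2 fold of 46 germline and oocyte markers (-0.77) and of 18 chromosome axis, synapsis and pairing genes (-0.59).

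At strand exchange the recombinase and its loader diverged. The recombinase gene rad-51 (WBGene00004297, chromosome IV, 10281637 to 10284244, minus strand) had 89.8, 103.1 and 106.7 CPM as lowest, median and highest value in xpf-1 and 91.7, 106.9 and 116.3 CPM in N2. The groups overlapped in part: 1 of 6 xpf-1 libraries lay above the N2 mean, 0 above the highest N2 library and 1 below the lowest. The log2 fold of -0.07 ± 0.05 (SE) did not pass (edgeR adjusted p 0.25), and its 95% interval of -0.19 to 0.04 covers a level between 0.879 and 1.03 times that of N2. Without N2 replicate 2, the lowest N2 library, the value was -0.11 with an edgeR adjusted p of 0.0493.

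The loader gene brc-2 (WBGene00020316, chromosome III, 6900574 to 6903106, minus strand), the worm BRCA2, had 29.2, 30.5 and 38.2 CPM as lowest, median and highest value in xpf-1 and 46.9, 47.7 and 50.6 CPM in N2. The groups did not overlap, and within xpf-1 replicates 5 and 2 were the highest. The log2 fold was -0.60 ± 0.07 (SE, 95% interval -0.73 to -0.46, edgeR adjusted p 2.25e-09), which left 66.2% of the N2 mean. The span of brc-2 overlaps T07E3.4 on the other strand by 30 bases, and that gene moved less, by -0.15 ± 0.07 log2 units (edgeR adjusted p 0.0466).

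The RAD-51 paralog gene rfs-1 (WBGene00004342, chromosome III, 8226478 to 8227429, plus strand) was the least read of the 10, with 44 to 98 reads per library in xpf-1 and 51 to 88 in N2. It had 2.39, 3.07 and 4.62 CPM as lowest, median and highest value in xpf-1 and 2.59, 3.21 and 4.42 CPM in N2. The log2 fold of -0.06 ± 0.17 (SE) did not pass (edgeR adjusted p 0.769). Its 95% interval, from 0.753 to 1.22 times the N2 level, leaves moderate changes undetectable at this depth. The deposited model of rfs-1 is 762 bases long and ends at 8227429, while the Ensembl annotation of the same build extends the gene to 8229989.

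Among the 7 other strand exchange and helicase genes, 1 rose, 3 fell and 3 did not pass, where 30.1% of all tested genes rose and 29.6% fell. The anti-recombination helicase gene rtel-1 fell to 44.1 ± 3.33 CPM in xpf-1, against 64.2 ± 5.19 CPM in N2, and the remodelling helicase gene rad-54.L fell to 17.1 ± 1.88 CPM in xpf-1, against 23.9 ± 2.94 CPM in N2. The crosslink repair gene fcd-2, the worm FANCD2, rose to 50.9 ± 4.23 CPM in xpf-1, against 38.8 ± 4.36 CPM in N2 (log2 fold 0.39 ± 0.07 SE, edgeR adjusted p 1.86e-05).

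The BRC-1 and BRD-1 partners differed from each other too. The ligase gene brc-1 (WBGene00000264, chromosome III, 3853105 to 3862958, minus strand) had 24.3, 26.1 and 27.3 CPM as lowest, median and highest value in xpf-1 and 24.6, 28.7 and 29.9 CPM in N2. Every xpf-1 library lay below the N2 mean, but the groups overlapped, and the log2 fold of -0.10 ± 0.07 (SE, 95% interval -0.24 to 0.04) did not pass (edgeR adjusted p 0.198). A pseudogene with 583 reads over the 12 libraries, C36A4.12, overlaps brc-1 by 1860 bases on the other strand.

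In contrast brd-1 (WBGene00000265, chromosome III, 6885202 to 6889523, minus strand) had 51.8, 56.5 and 60.7 CPM as lowest, median and highest value in xpf-1 and 37.5, 43.3 and 44.9 CPM in N2. All 6 xpf-1 libraries lay above all 6 N2 libraries, which was so for 17.9% of tested genes. The log2 fold was 0.40 ± 0.06 (SE, 95% interval 0.28 to 0.52, edgeR adjusted p 8.27e-07), or 1.32 times the N2 level. The tRNA and non-coding RNA genes that overlap it had at most 1 read each over the 12 libraries.

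At the crossover step msh-5 (WBGene00003421, chromosome IV, 13155228 to 13164052, plus strand) had 13.96, 14.8 and 19.9 CPM as lowest, median and highest value in xpf-1 and 12.9, 18.8 and 21.5 CPM in N2. The groups overlapped, with xpf-1 replicate 1 the highest of its group and N2 replicate 2 the lowest of its own. The log2 fold of -0.20 ± 0.10 (SE, 95% interval -0.41 to 0.02) did not pass (edgeR adjusted p 0.105). It passed without N2 replicate 2 (-0.27, adjusted p 0.00821), without xpf-1 replicate 1 (-0.26, adjusted p 0.0228) and in replicates 4 to 6 alone (-0.44, adjusted p 0.00118). It also passed without the low-count filter (-0.24, adjusted p 0.0176) and after removal of the gene length trend (-0.40, adjusted p 6.32e-05). In replicates 1 to 3 alone the value was 0.05 (adjusted p 0.798). At 4219 bases msh-5 is the longest of the 10.

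Of 7 other crossover genes, 6 fell and 1, zhp-3, did not pass (log2 fold -0.09), beside the fall of 43 of 46 germline markers and of 29.6% of all tested genes. The number fallen was 5 to 6 as single libraries were left out. The median log2 fold of these 7 crossover genes was -0.57. The gene him-14, which encodes MSH-4, the partner of MSH-5, averaged 12.5 ± 1.69 CPM in xpf-1 and 21.2 ± 1.17 CPM in N2 (log2 fold -0.77 ± 0.08 SE, edgeR adjusted p 2.41e-09). The crossover site gene cosa-1 averaged 6.52 ± 0.683 CPM in xpf-1 and 10.4 ± 1.71 CPM in N2, and the RING-finger gene zhp-1 15.9 ± 1.89 CPM in xpf-1 and 29.5 ± 2.70 CPM in N2.

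Genes that resolve joint molecules were mostly lower as well, with 8 of 10 fallen, 1 risen and a median log2 fold of -0.37. The nuclease partner gene ercc-1 averaged 71.9 ± 4.76 CPM in xpf-1 and 112.0 ± 4.06 CPM in N2, the resolvase gene gen-1 65.4 ± 2.92 CPM in xpf-1 and 98.2 ± 9.08 CPM in N2, and slx-1 64.6 ± 3.62 CPM in xpf-1 and 95.4 ± 4.49 CPM in N2. The number fallen was 5 under scaling by library totals or by upper quartiles, in replicates 1 to 3 alone and with N2 replicate 6 counted as a mutant. Over the 5 recombination lists outside the 10 genes, 27 of 37 fell, 2 rose and 8 did not pass, with a median log2 fold of -0.31. Among all tested genes 29.6% fell and 30.1% rose. Scaled to the germline markers, 1 break-formation gene was lower and 0 crossover, resolution, resection and strand exchange genes, against 2.45% of all genes. Against a 1.5-fold change, 1 break-formation and 2 crossover genes were lower, and 0 resolution, resection and strand exchange genes. Among 4 end-joining genes, the alternative route of break repair, polq-1 fell by 0.52 and cku-80 by 0.30 on the log2 scale, cku-70 rose by 0.24 and lig-4 did not pass (0.15 ± 0.07 SE).

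**Figure D3:**
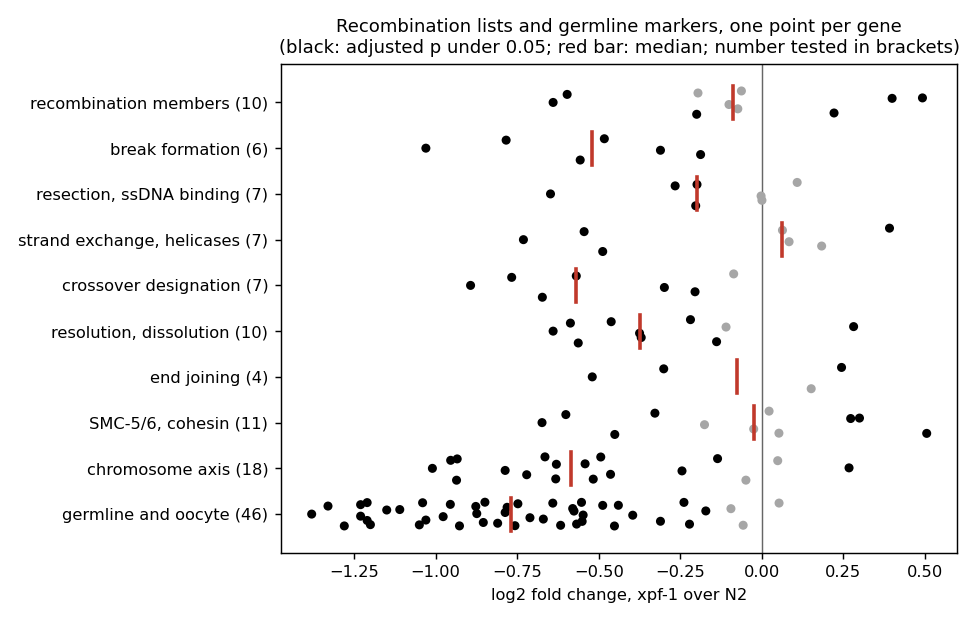
Log2 fold change of every tested gene, xpf-1 over N2 (horizontal axis), by list, with the number tested in brackets, a red bar at each median, and black for genes that passed the test. The recombination genes straddle 0 with a median of -0.09, while break formation (-0.52), crossover designation (-0.57), chromosome axis (-0.59) and germline markers (-0.77) lie to the left.

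Set against the germline markers, most of the 10 genes took a larger share in the mutant, as did most tested genes. The level of each was expressed per 1000 CPM of the 46 summed germline markers in the same library and compared by a two-sided exact permutation test over libraries, whose smallest possible p is 0.0022. For rad-51 this ratio was 14.7 ± 0.879 in xpf-1 and 8.78 ± 0.328 in N2 (p = 0.0022, exact, unadjusted), for rad-50 25.4 ± 3.93 in xpf-1 and 10.3 ± 1.23 in N2 (p = 0.0022, exact), and for brd-1 8.20 ± 0.588 in xpf-1 and 3.52 ± 0.119 in N2 (p = 0.0022, exact). All 6 xpf-1 libraries lay above all 6 N2 libraries for 8 of the 10, but this was so for 70.3% of all tested genes, and the denominator itself fell. A small p for this ratio therefore does not set the members apart from other genes. The exceptions were rfs-1, at 0.479 ± 0.114 in xpf-1 and 0.283 ± 0.0531 in N2 (p = 0.0065, exact), and spo-11.

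The genes spo-11 and brc-2 stayed closest to the germline markers. For spo-11 the ratio was 8.10 ± 0.507 in xpf-1 and 7.18 ± 0.678 in N2, a 1.13-fold change with overlapping groups (p = 0.024, exact), which no longer passed without N2 replicate 1, 3 or 5 (p = 0.054, 0.058 and 0.052, exact) or with the geometric mean of the markers (p = 0.17, exact). For brc-2 it was 4.66 ± 0.396 in xpf-1 and 4.00 ± 0.156 in N2, or 1.16-fold (p = 0.0022, exact). A list of 18 genes of the synaptonemal complex, the chromosome axis, chromosome pairing and their regulation is called axis genes here. Of these 15 fell, 1 rose and 2 did not pass. Relative to this list both ratios turned: spo-11 stood at 0.897 times and brc-2 at 0.925 times the N2 ratio (p = 0.011 and 0.11, exact). Against that same list 6 of the 10 lay wholly above N2, where 50.6% of all tested genes did. With libraries scaled to the germline markers in the edgeR fit, 9 of 10 were called higher against 85.3% of all genes and 0 lower against 2.45%, and scaled to the axis genes 8 were higher against 72.7% and 1 lower against 5.69%.

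The members can also be placed among the markers one by one. The log2 folds of brd-1, rad-50 and com-1 lay above those of all 46 germline markers, and those of rad-51 and rfs-1 above 44 of 46. The folds of spo-11 and brc-2 lay within the markers, above 28 and 29 of the 46. Levels of other cell types moved less uniformly. Zygotic embryo markers fell in 5 of 8 tested genes (summed level 171 to 183 CPM in xpf-1 and 214 to 233 CPM in N2). Neuron markers rose in 4 of 12, near the 30.1% of all genes, and fell in 0. Sperm markers rose in 2 and fell in 3 of 10 tested, out of 20 listed, with a median log2 fold of 0.697. Their summed levels overlapped, at 25.4 to 41.8 CPM in xpf-1 and 29.1 to 44.4 CPM in N2. Intestine markers rose in 4 and fell in 4 of 11 (summed level 3610 to 7060 CPM in xpf-1 and 2890 to 3820 CPM in N2). Most of that sum was the yolk gene vit-2, at 3680 ± 1050 CPM in xpf-1 and 2060 ± 260 CPM in N2. Muscle markers rose in 4 and fell in 6 of 12 (862 to 973 CPM in xpf-1 and 971 to 1180 CPM in N2). Hypodermis markers rose in 3 and fell in 3 of 7 tested, and their summed level did not overlap (360 to 378 CPM in xpf-1 and 387 to 420 CPM in N2). Most of that sum was col-19, 1 of the 3 that fell, at 205 ± 14.5 CPM in xpf-1 and 254 ± 19.4 CPM in N2. The 3 that rose changed more, nhr-25 by 2.03, elt-1 by 1.14 and dpy-7 by 4.13 log2 units. Of these, dpy-7 was near the floor, at 1.12 CPM in xpf-1 and 0.0583 CPM in N2. Among all tested genes 30.1% rose and 29.6% fell. The part of these in the results was not tested.

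Transcript ratios were formed for 6 known partner pairs. The pairs were picked after the fold changes had been seen and each has the gene with the higher fold on top, which fixes the direction, so the ratios, in reads per kilobase of one gene over the other, are given as descriptions without a test. The rad-50 to mre-11 ratio was 0.902 ± 0.157 in xpf-1 and 0.559 ± 0.0736 in N2, with xpf-1 replicate 6 at 0.629 inside the N2 range of 0.459 to 0.658. The brd-1 to brc-1 ratio was 1.93 ± 0.110 in xpf-1 and 1.37 ± 0.109 in N2, with ranges of 1.77 to 2.06 and 1.28 to 1.59. The rad-51 to brc-2 ratio was 2.95 ± 0.290 in xpf-1 and 2.04 ± 0.142 in N2, and its ranges did not overlap either.

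The com-1 to mre-11 ratio was 0.457 ± 0.0314 in xpf-1 and 0.341 ± 0.0204 in N2, and the msh-5 to him-14 ratio 0.795 ± 0.113 in xpf-1 and 0.530 ± 0.0740 in N2. The ratio of rfs-1 to rip-1, which encodes its partner, was 1.82 ± 1.04 in xpf-1 and 1.13 ± 0.511 in N2, with 1 xpf-1 library at 3.88 and wide overlap. Without that library, xpf-1 replicate 3, the log2 change of this ratio was 0.32 in place of 0.69. These ratios do not depend on how libraries are scaled to each other.

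**Figure D4:**
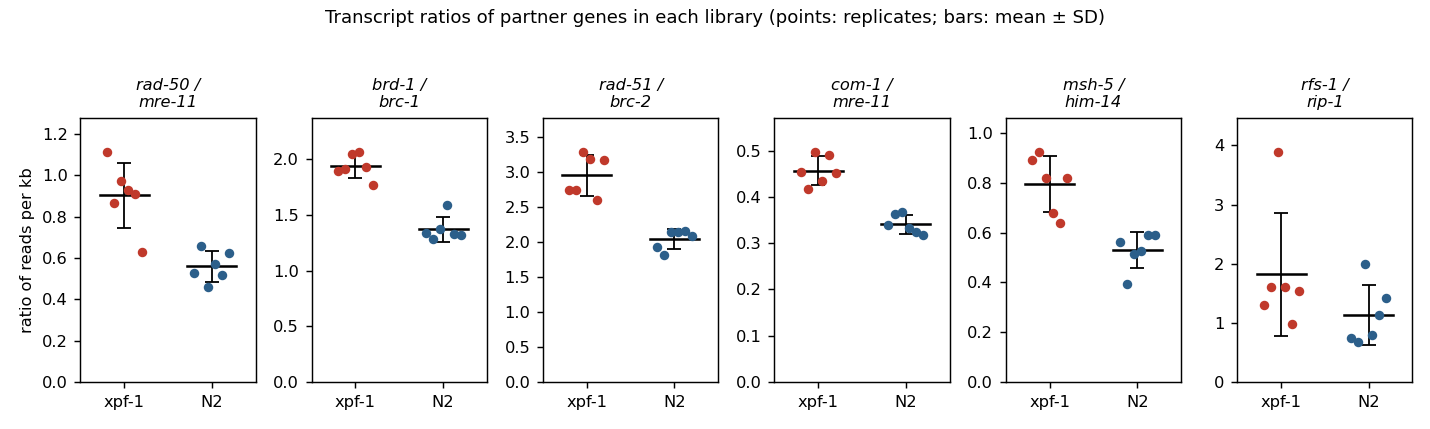
Ratio of reads per kilobase (vertical axis, linear, starting at 0) for 6 pairs of genes whose products work together, in 6 xpf-1 libraries (left) and 6 N2 libraries (right), with mean and SD. The gene with the higher fold is the numerator, so the xpf-1 mean is the higher in each panel by construction, and the ranges overlap for rad-50 to mre-11 and for rfs-1 to rip-1.

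Per kilobase of gene model, rad-51 was the most abundant of the 10 in both strains, at 66.3 ± 3.98 CPM per kilobase in xpf-1 and 69.7 ± 5.44 in N2. In xpf-1 it stood apart from mre-11 (46.4 ± 2.09), rad-50 (41.7 ± 6.36) and spo-11 (39.3 ± 2.38), neighbours in the order whose ranges overlapped. In N2 the next were spo-11 (61.17 ± 3.204), which overlapped rad-51, then mre-11 (53.3 ± 3.61) and brc-2 (34.1 ± 1.22). At the foot of the order were rfs-1, at 4.30 ± 0.988 in xpf-1 and 4.51 ± 0.987 in N2, and msh-5, at 3.76 ± 0.547 in xpf-1 and 4.30 ± 0.682 in N2, whose ranges overlapped in both strains. Among the N2 libraries the spread was widest for rfs-1, with an SD of 21.9% of the mean, and narrowest for brc-2, at 3.58%.

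On the genome the 10 genes lie on chromosomes III (5 genes), IV (3 genes) and V (2 genes). The genes brd-1 and brc-2 lie on the same strand of chromosome III with 11050 bases between them and changed in opposite directions, 0.40 and -0.60 log2 units. Of 19 nearest protein-coding neighbours, 17 were tested, of which 4 rose, 10 fell and 3 did not pass, where 30.1% of all tested genes rose and 29.6% fell. Next to rad-50, T04H1.5 begins 92 bases after it on the same strand and fell by 0.39 on the log2 scale, and slfl-5 on the other side fell by 0.22, so the rise of rad-50 was not shared by either neighbour. Next to spo-11, imp-2 and swsn-4 rose by 0.12 and 0.14. The neighbour of rad-51 on its strand, thk-1, 54 bases away, fell by 0.25 on the log2 scale.

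In the authors' deposited table, which calls 44.1% of its genes, all 10 genes had the same sign and the same side of an adjusted p of 0.05 as here. That table gave spo-11 a log2 fold change of -0.65 with an adjusted p of 3.61e-31, and rad-50 one of 0.47 with an adjusted p of 2.56e-07. No change among the 10 passed edgeR's test against a 1.5-fold change, the closest being spo-11 (adjusted p 0.319), while 11.5% of all tested genes did.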

How the data were processed

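Total RNA of whole worms was sequenced after NEBNext Ultra library preparation from 1 µg RNA per sample, per the labels' protocols. The tools named by the submitters' processing notes are HISAT2 2.1.0, featureCounts 1.5.0-p3 and CASAVA, on build WBcel235. Strand setting and treatment of multi-mapped reads were not stated. The deposited values used are raw counts. The authors' log2 fold change with its p-value, raw and adjusted, is read from the same table, per the file headers, and its tool was not stated. The 24 per-library columns of FPKM and normalised values were not used.

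The main fit of the counts used edgeR 4.0.16 under R 4.3.3 (filterByExpr, TMM, robust quasi-likelihood, no covariate). CPM uses TMM-adjusted library sizes, and gene lengths are the deposited ones. Library totals of 18407182 to 22817135 and a biological coefficient of variation of 9.62% set the precision. Libraries of a group differed by more than sampling noise (chi-square per degree of freedom 6.11 to 64.2). Alternatives used DESeq2 1.42.0, limma 3.58.1, other scalings, filters and library sets. Log ratios between partner genes and ratios to summed markers were computed from CPM. Members were matched by name and the 16 other lists by gene ID; 5 listed symbols (rec-1, nhj-1, smc-1, opt-2, vet-4) had no match and got no value. The members and lists were chosen with earlier results of these data known. Genes named are the 10 members, xpf-1, some nearest protein-coding neighbours and genes with the 3 smallest p of a list. All 3 are named for the recombination, end-joining, cohesin and SMC-5/6, and hypodermis lists. Only some of the 3 are named for the germline and oocyte list and the mitotic zone genes. None of the 3 are named for the axis, sperm, embryo, intestine, muscle and neuron lists. Overlapping genes, rip-1, rpa-1, rpa-2, lig-4, zhp-3, bli-1, dpy-13, vit-2, col-19, and in the closing section smc-5, smc-6, smc-3, scc-1 and coh-1, were named after their values were seen. No sequences were used here.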

Additional observations from a re-analysis of the deposited data

Results flagged for a closer look

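In 36 groups of 6 libraries (members, partner ratios and summed markers), 5 had 1 library far from the rest, judged by its gap to the nearest library over the group's range against Dixon's 95% value. Chance gives about 1 in 20 such groups. In N2, replicate 2 was the low library for brd-1, at 37.5 CPM where the others had 42.3 to 44.9 CPM, and for mre-11, at 113 CPM where the others had 130.1 to 139.5 CPM. That library also had the lowest summed germline markers of the N2 libraries (11110 CPM) but the highest spo-11 level (92.4 CPM). N2 replicate 3 was the high library for com-1, at 35.3 CPM where the others had 28.3 to 30.7 CPM. For the ratio of brd-1 to brc-1 per length, N2 replicate 4 stood at 1.59 where the others had 1.28 to 1.37. For the ratio of rfs-1 to rip-1, xpf-1 replicate 3 stood at 3.88 where the others had 0.982 to 1.61, on few reads of both genes.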

How the results depend on the processing

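The number of genes called was 1643 in the test against a 1.5-fold change and otherwise within 1.5 times of the 8509 called in the main comparison. Leaving out each library in turn gave 8195 to 8594 genes, 3 to 5 members lower (5 without N2 replicate 2), 3 members higher in each case, 43 to 44 germline markers lower and 14 to 15 axis genes lower. Against a 1.5-fold change, 0 members were lower and 0 higher, 24 germline markers were lower and 6 axis genes. Scaled to the germline markers, which moves the median log2 fold of all tested genes to 0.776, 0 members were lower and 9 higher, with 15 germline markers and 4 axis genes lower. Scaled to the axis genes (median 0.55), 1 member was lower and 8 higher, with 26 germline markers and 7 axis genes lower. By construction, the germline scaling turned rad-51 (0.68), brc-1 (0.65), brc-2 (0.15), mre-11 (0.55), spo-11 (0.11), msh-5 (0.56) and rfs-1 (0.695) above 0, and the axis scaling rad-51 (0.45), brc-1 (0.42), mre-11 (0.32), msh-5 (0.33) and rfs-1 (0.47).

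Signs of rad-51, rfs-1 and msh-5, which did not pass in the main comparison, also turned. The log2 fold of rad-51 was 0.00255 with upper quartile factors. That of rfs-1 was 0.00664 under scaling by library totals, 0.0145 by upper quartiles, 0.00504 after removal of the length trend, 0.18 in replicates 1 to 3 alone, and from -0.19 to 0.02 as single libraries were left out, with 0.0185, 0.00776 and 0.0137 without N2 replicate 3, N2 replicate 5 and xpf-1 replicate 5. That of msh-5 was 0.0541 in replicates 1 to 3 alone. The cause of these shifts was not tested. Relative to germline markers, 8 to 9 members lay wholly above N2 as libraries were left out, and 0 with N2 replicate 6 counted as a mutant, which mixes an N2 library into that group by construction; with the axis list, brc-2 and spo-11 turned to -0.113 and -0.158.

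Shared replicate numbers gave no clear sign of pairing, though so few pairs cannot exclude it. Same-numbered libraries correlated from -0.00312 to 0.12 in their deviations from group means, and other pairs from -0.191 to 0.138. Of the xpf-1 libraries, 2 of 6 correlated best with their own number. With the replicate number as a block, 8536 genes were called, 3 members were lower and 3 higher, and no member's call changed. DESeq2 called 8909 genes and the same 6 members. Depth limits rfs-1 most, at 44 to 98 reads per library.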

Other observations

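Cohesin and SMC-5/6 genes, which hold sister chromatids together and assist recombination, were called at about the background rate. Of 11 tested, 3 rose (30.1% of all genes did), 4 fell (29.6% of all genes) and 4 did not pass, and the median log2 fold was -0.03. The meiotic cohesin subunit gene rec-8 fell to 23.7 ± 2.58 CPM in xpf-1, against 37.8 ± 5.19 CPM in N2 (edgeR adjusted p 4.56e-08), and the SMC-5/6 subunit genes nse-4 and nse-1 fell to 57.6 ± 4.24 and 50.8 ± 2.67 CPM in xpf-1, against 87.4 ± 4.94 and 69.3 ± 5.66 CPM in N2. The core subunit genes smc-5 of SMC-5/6 and smc-3 of cohesin rose to 217 ± 15.1 and 152 ± 7.81 CPM in xpf-1, against 177 ± 11.1 and 126 ± 8.91 CPM in N2. The other SMC-5/6 core gene, smc-6, did not pass (log2 fold 0.02, edgeR adjusted p 0.745). The mitotic kleisin gene scc-1 did not pass, at 80.4 ± 5.44 CPM in xpf-1 and 77.5 ± 7.85 CPM in N2, and coh-1 rose by 0.51 log2 units (± 0.07 SE).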
